A study of Mus musculus with 9 samples.

Results

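The genes described here are 10 that mark fat cells or encode hormones that fat cells secrete: Cfd, Fabp4, Lpl, Adipoq, Plin1, Plin4, Cidec, Pparg, Retn and Lep. They were chosen by gene symbol, out of 23238 unique symbols in the deposited count tables, and each had 1 entry in every library. The tissue was back skin of wild-type C57BL/6 (B6) mice in 3 groups of 3 libraries. The first was left unstripped and is labelled as control cream. The other two were stripped with adhesive tape, which removes the outer epidermis, and received either control cream or cream that held graphene oxide particles of nanometre size (NGO). A mouse of the NGO group received 50 µg in 100 µL of cream, and skin was taken 24 h after treatment. The series title names acute skin inflammation as its subject. The labels give no age, and the protocol mentions cream for the stripped area and no other, which leaves the handling of the unstripped skin unclear. Nothing in the labels says that replicates came from separate animals, so the p-values refer to the spread among these libraries, which may be technical.

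White fat cells store triglyceride in a large lipid droplet and release hormones into the blood. The nuclear receptor PPARγ, with its partner RXR and the C/EBP factors, switches on most genes of the mature fat cell. Mouse skin carries its own fat layer, the dermal adipose tissue, between the dermis and the thin panniculus muscle, and this layer grows and shrinks with the hair cycle and after wounding. Several of the 10 genes are also used elsewhere: Fabp4 and Lpl in capillary endothelium and macrophages, Lpl in muscle, and Pparg in sebocytes. In whole skin, a change in the number of cells of a type and a change in RNA per cell cannot be told apart.

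Levels are CPM, the counts of a gene scaled to a common library total after TMM normalization. Library totals ran from 2019739 to 6303322 counts, so that 1 count corresponded to between 0.166 and 0.517 CPM. Of the 10 genes 8 passed the low-count filter and were tested, and Plin1 and Lep were not. A gene was called at an edgeR quasi-likelihood adjusted p under 0.05 over 13740 genes. All members are protein-coding genes in GENCODE M21 (GRCm38, the assembly also called mm10), and 8 of them overlap no other annotated gene. Plin4 (chromosome 17, 56100591 to 56109803, minus strand) overlaps Hdgfl2 on the opposite strand, and Pparg (chromosome 6, 115360951 to 115490399, plus strand) overlaps the antisense gene Gm44079. The sources used here do not say whether counting used strand. Hdgfl2, listed under its older symbol Hdgfrp2, was at 68.4 ± 14.2, 88.8 ± 66.8 and 70.2 ± 32.9 CPM in unstripped, stripped control and NGO-treated skin (SD, n = 3) and was called in none of the comparisons (edgeR adjusted p = 0.727, 0.782 and 0.998).

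The start regions of Cfd, Plin4, Plin1 and Cidec are shown first, since PPARγ and C/EBP are factors known to bind fat-cell genes. RefSeq promoter windows (GRCm38.p6, 250 bases before to 50 after a gene start) were found for 8 of the 10 members, 11 windows in all. Cfd and Plin4 were the members past the test after stripping that had a window, and Plin1 and Cidec, which build the lipid droplet, held searched motifs. The windows below are read 5′ to 3′ on the strand of the gene. They lie at chr10:79890603-79890902 (Cfd, plus strand), chr17:56109733-56110032 (Plin4, minus strand), chr7:79732727-79733026 (Plin1, minus strand) and chr6:113434715-113435014 (Cidec, minus strand, the second of its 2 windows). Capitals mark the C/EBP core TTGCNNAA and the AP-1 element TGANTCA, searched on both strands.
Cfd: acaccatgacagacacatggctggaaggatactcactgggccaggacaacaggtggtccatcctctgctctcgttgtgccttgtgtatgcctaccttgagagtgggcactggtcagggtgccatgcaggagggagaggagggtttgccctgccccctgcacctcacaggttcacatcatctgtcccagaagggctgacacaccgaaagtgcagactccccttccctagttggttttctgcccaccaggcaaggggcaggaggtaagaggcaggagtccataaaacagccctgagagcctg
Plin4: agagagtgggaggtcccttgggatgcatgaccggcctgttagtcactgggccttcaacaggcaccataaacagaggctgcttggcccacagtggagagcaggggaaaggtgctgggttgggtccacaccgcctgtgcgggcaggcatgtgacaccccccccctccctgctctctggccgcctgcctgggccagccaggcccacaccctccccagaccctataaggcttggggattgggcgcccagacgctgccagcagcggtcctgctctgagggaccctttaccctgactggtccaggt
Plin1: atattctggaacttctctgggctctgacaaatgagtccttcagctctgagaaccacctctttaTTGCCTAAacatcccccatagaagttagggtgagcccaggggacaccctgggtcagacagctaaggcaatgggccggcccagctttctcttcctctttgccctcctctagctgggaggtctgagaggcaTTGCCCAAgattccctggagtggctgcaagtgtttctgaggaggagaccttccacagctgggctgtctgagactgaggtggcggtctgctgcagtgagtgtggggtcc
Cidec: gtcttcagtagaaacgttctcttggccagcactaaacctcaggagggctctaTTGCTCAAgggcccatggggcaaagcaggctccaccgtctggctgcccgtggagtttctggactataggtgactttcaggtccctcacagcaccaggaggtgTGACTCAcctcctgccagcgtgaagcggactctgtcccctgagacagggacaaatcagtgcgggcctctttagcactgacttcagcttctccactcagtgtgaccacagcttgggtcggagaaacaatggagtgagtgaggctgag
The Plin1 window held C/EBP cores that began at bases -187 (TTGCCTAA) and -58 (TTGCCCAA) relative to the start. The Cidec window held 1 C/EBP core at -198 (TTGCTCAA) and 1 AP-1 element at -96 (TGACTCA). The windows of Cfd, Plin4, Adipoq and Retn held neither of these, nor the TATA box TATAAA, nor the paired nuclear receptor element AGGTCANAGGTCA, in which PPARγ-RXR binds 2 copies of AGGTCA. In all, 4 of the 11 member windows held a C/EBP core, against 10.8% of the 32851 windows of all genes, and 1 held the AP-1 element, against 7.81%. The windows with a C/EBP core were those of Plin1, Cidec and Lep shown or searched here and 1 window of Pparg. None of these genes was called in any comparison. The paired element was in 0 of the 11 and in 0.0396% of all windows, a single AGGTCA in 2 of the 11 and in 16.3%, and TATAAA in 1 of the 11 and in 13.6%. A match describes letters in the window, and no match says only that these letters are not in it.

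Stripped control skin was compared with unstripped skin to ask what stripping changed. In this comparison 4 members rose together, and none fell: the secreted protease gene Cfd, the fatty acid carrier gene Fabp4, the lipase gene Lpl and the lipid droplet coat gene Plin4. Cfd moved from 5.26 ± 2.07 to 412 ± 137 CPM. Of 13740 genes tested 13.6% were called in this comparison, 5.97% higher and 7.64% lower, so that 4 of 8 tested members stood beside a background of 5.97%. The balance of all calls, 820 higher and 1050 lower, turned to 948 and 931 with RLE scaling and to 1392 and 1154 with limma-voom. The median log2 fold change was 2.66 over the 8 tested members and -0.20 over all genes tested. The members had been chosen with earlier results of these data known, so these counts describe them and do not test them as a set.

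Cfd encodes adipsin, the serine protease complement factor D, which fat cells secrete (chromosome 10, 79890853 to 79892655). It was at 5.16, 7.37 and 3.24 CPM in unstripped skin, 366, 566 and 303 CPM in stripped control skin, and 266, 304 and 174 CPM in NGO-treated skin. Every stripped library, with either cream, stood far above every unstripped library, while the values of the stripped groups met at 303 and 304 CPM. Its log2 fold change after stripping was 6.28 ± 0.47 (SE, edgeR adjusted p = 9.83e-06). With NGO against control cream on stripped skin it was -0.73 ± 0.36, which did not pass the test (edgeR adjusted p = 0.268, 95% interval -1.52 to 0.05). NGO-treated skin stayed above unstripped skin by 5.55 ± 0.45 (edgeR adjusted p = 7.47e-05).

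Fabp4 encodes the fatty acid binding protein of fat cells (chromosome 3, 10204088 to 10208576). It was at 13.4, 16.5 and 18.9 CPM in unstripped skin, 195, 205 and 185 CPM in stripped control skin, and 183, 295 and 143 CPM in NGO-treated skin. The stripped control libraries lay close together, and the NGO-treated libraries spread on both sides of them. The log2 fold change was 3.58 ± 0.38 after stripping (edgeR adjusted p = 6.01e-05) and 3.66 ± 0.38 between NGO-treated and unstripped skin (edgeR adjusted p = 0.000259). Between the stripped groups it was 0.08 ± 0.34 (edgeR adjusted p = 0.925, 95% interval -0.65 to 0.81), and its sign there was negative with RLE and upper-quartile scaling.

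Plin4 encodes perilipin 4, a coat protein of lipid droplets that is also found in muscle. It was at 17.5, 12.4 and 16.8 CPM in unstripped skin, 63.1, 160 and 161 CPM in stripped control skin, and 107, 83.0 and 121 CPM in NGO-treated skin. Stripped control replicate 1 was the lowest stripped library, and no stripped library reached down to the unstripped ones. The log2 fold change was 3.04 ± 0.46 after stripping (edgeR adjusted p = 0.000577) and 2.73 ± 0.45 between NGO-treated and unstripped skin (edgeR adjusted p = 0.00433). Between the stripped groups it was -0.31 ± 0.42 (edgeR adjusted p = 0.741, 95% interval -1.21 to 0.59).

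**Figure D1:**
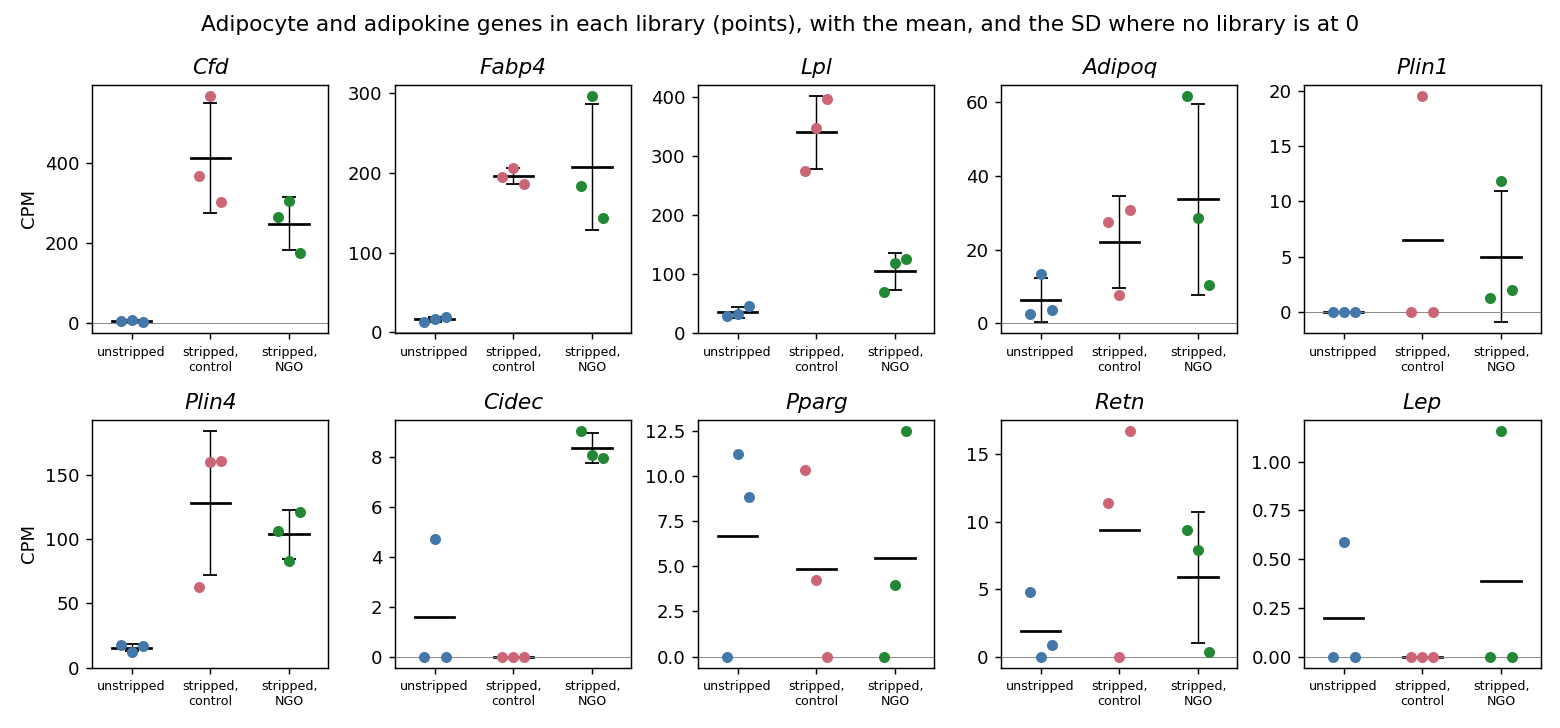
Level of each of the 10 members (CPM, linear axis) in the 9 libraries, by group. Points are libraries, thick lines are means over 3 libraries and bars are SD, left out where a library was at 0. Cfd, Fabp4, Lpl and Plin4 were higher in all 6 stripped libraries than in the unstripped ones, and Lpl alone among them separated the stripped groups.

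NGO-treated skin was compared with stripped control skin, the comparison that the series title asks about. Lpl fell, and no other member passed the test. Of all genes tested 5.05% were called in this comparison, 3.87% higher and 1.18% lower, beside 0 and 1 of the 8 tested members. The 532 higher and 162 lower calls became 428 and 215 with RLE scaling and turned to 189 and 231 with limma-voom. The median log2 fold change was -0.11 over the 8 tested members and 0.07 over all genes tested.

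Lpl encodes lipoprotein lipase, the enzyme that frees fatty acids from blood lipoproteins at the capillary wall (chromosome 8, 68880491 to 68907448). It was at 28.5, 31.5 and 45.4 CPM in unstripped skin, 275, 348 and 397 CPM in stripped control skin, and 68.8, 119 and 126 CPM in NGO-treated skin. The 3 groups did not overlap, with NGO-treated skin between the others. The log2 fold change was 3.27 ± 0.37 after stripping (edgeR adjusted p = 9.58e-05) and -1.70 ± 0.35 with NGO against control cream (edgeR adjusted p = 0.0173). The NGO call was lost without NGO replicate 1 (edgeR adjusted p = 0.0796), without NGO replicate 2 (0.0513) and in a fit of the stripped groups alone (0.0573), with a log2 fold change of -1.47 to -1.80 in these fits. NGO-treated skin was above unstripped skin by 1.57 ± 0.35 (edgeR adjusted p = 0.0295). Leaving out 1 library ended that call in 6 of 9 cases (any unstripped replicate, replicate 2 of stripped control skin, and NGO replicates 2 and 3), with an edgeR adjusted p of up to 0.181.

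The other genes were also read against Fabp4 as ratios of counts within a library, which no scaling enters. Lpl over Fabp4 was 2.13, 1.91 and 2.41 in unstripped skin, 1.41, 1.69 and 2.14 in stripped control skin, and 0.377, 0.404 and 0.882 in NGO-treated skin. The ratio was thus lower in every NGO-treated library than in any other library, and the first 2 groups overlapped. Cfd over Fabp4 was 0.385, 0.446 and 0.172 in unstripped skin, 1.88, 2.76 and 1.64 in stripped control skin, and 1.46, 1.03 and 1.22 in NGO-treated skin. These 3 groups did not overlap, and the stripped control libraries were highest. Plin4 over Fabp4 overlapped between all groups, with means of 0.983, 0.657 and 0.571. Against Adipoq, which had fewer counts, Lpl gave 11.9, 2.38 and 12.8 in unstripped skin, 10.02, 44.6 and 12.9 in stripped control skin, and 1.12, 4.16 and 12 in NGO-treated skin, and overlapped in every comparison. Plin4 over Adipoq overlapped in every comparison too, with means of 4.32, 9.34 and 5.39. Cfd over Adipoq was 2.14, 0.556 and 0.917 in unstripped skin, 13.4, 72.6 and 9.83 in stripped control skin, and 4.32, 10.6 and 16.6 in NGO-treated skin. It was higher in every stripped than in every unstripped library and overlapped between the stripped groups. Thus the separation of the stripped groups by the Lpl and Cfd ratios was seen with Fabp4 below the line and not with Adipoq. The ratios were chosen after the values were seen, and no test was made of them.

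**Figure D2:**
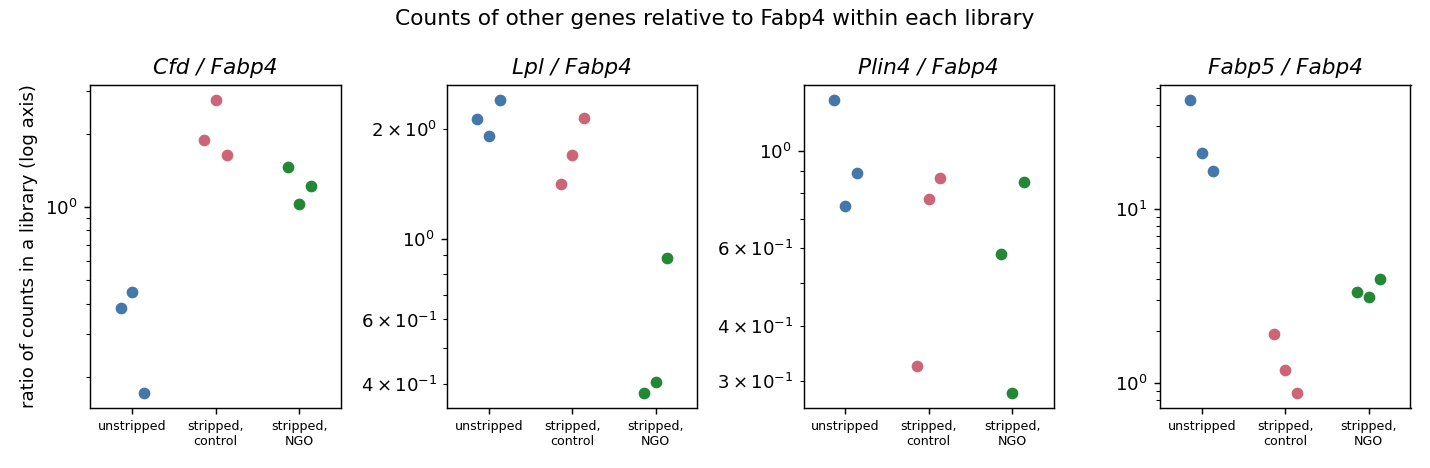
Ratio of the counts of Cfd, Lpl, Plin4 and the epidermal paralog Fabp5 to those of Fabp4 within each library (log axis), 3 libraries a group. The Lpl ratio was lowest in the NGO-treated libraries, and the Fabp5 ratio was highest in the unstripped ones.

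**Figure D3:**
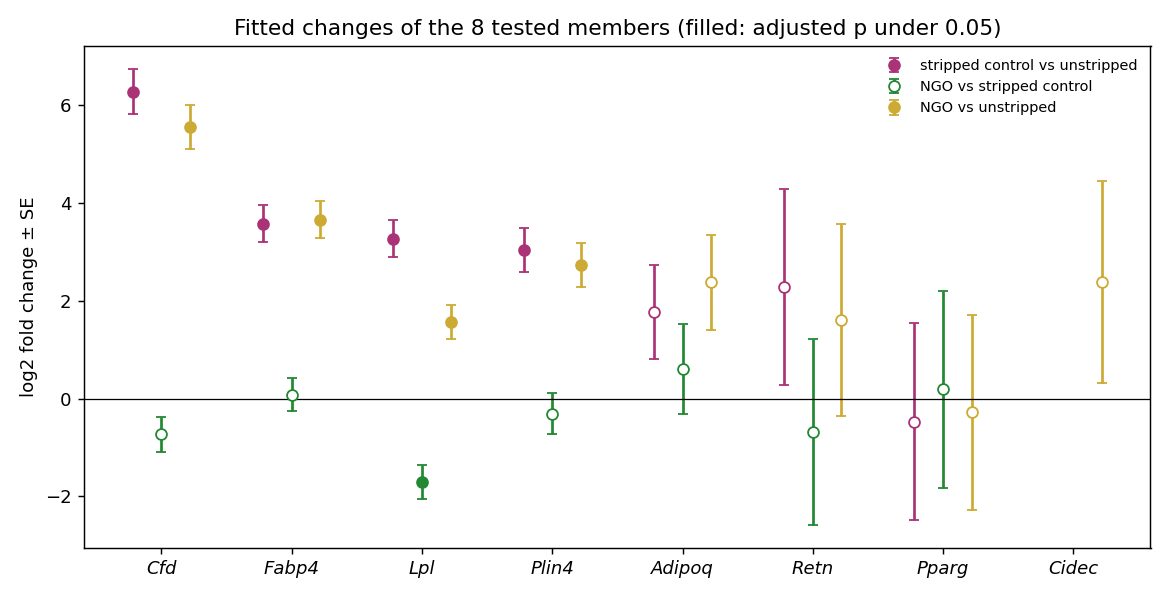
Log2 fold changes of the 8 tested members in the 3 comparisons, with SE from the edgeR fit. Filled points passed an adjusted p under 0.05, and comparisons in which Cidec was at 0 in a whole group are left out. Cfd, Fabp4, Lpl and Plin4 lie above 0 against unstripped skin, and Lpl lies below 0 between the stripped groups.

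The secreted hormones gave fewer counts. Adipoq encodes adiponectin, a hormone made almost only by fat cells (chromosome 16, 23146536 to 23158028). It was at 2.41, 13.3 and 3.54 CPM in unstripped skin, 27.4, 7.80 and 30.8 CPM in stripped control skin, and 61.6, 28.7 and 10.5 CPM in NGO-treated skin, from 7 to 204 counts a library. All groups overlapped: unstripped replicate 2 lay above stripped control replicate 2 and NGO replicate 3. The log2 fold change was 1.77 ± 0.96 after stripping (edgeR adjusted p = 0.258), 0.61 ± 0.93 with NGO against control cream (0.772) and 2.38 ± 0.97 between NGO-treated and unstripped skin (edgeR adjusted p = 0.333). None of these passed, and the 95% interval after stripping, -0.29 to 3.84, holds the change of Fabp4 as well as 0. With NGO against control cream the interval was -1.39 to 2.60. Between NGO-treated and unstripped skin it was 0.28 to 4.48, above 0 but not adjusted for the number of genes tested.

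Retn encodes resistin, a hormone of fat cells in mice (chromosome 8, 3655770 to 3660110). It had 14, 0 and 3 counts in the unstripped libraries, 22, 0 and 52 with control cream after stripping, and 31, 34 and 2 with NGO. Each group held a library at or near 0, and no comparison passed (edgeR adjusted p = 0.527, 0.887 and 0.925). Lep encodes the satiety hormone leptin (chromosome 6, 29060220 to 29073877). It was seen in only 2 of 9 libraries, with 2 counts in unstripped replicate 2 and 5 counts in NGO replicate 2. In stripped control skin its 0 counts allow a level of up to 0.369 CPM, taken as 3 counts over the group. Such limits cover counting error only.

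The remaining members had few counts. Pparg, which encodes the receptor PPARγ, had 0, 38 and 30 counts in the unstripped libraries, 20, 13 and 0 with control cream after stripping, and 0, 17 and 75 with NGO. A library at 0 stood in each group beside others with counts, and the edgeR adjusted p was at least 0.921 in every comparison. Plin1, the main droplet coat protein of fat cells (chromosome 7, 79720218 to 79732903), had 0 counts in all unstripped libraries, 0, 60 and 0 in stripped control skin, and 4, 51 and 12 in NGO-treated skin. Its mean of 5.0 CPM in NGO-treated skin was at least 16.2-fold higher than the 0.310 CPM that 3 counts over the unstripped group allow, and it was not tested. NGO replicate 2 carried most of that mean: without it the bound was 5.18-fold, and without unstripped replicate 2 or 3 it was 10.5-fold.

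Cidec encodes a protein that fuses lipid droplets into larger ones (chromosome 6, 113424634 to 113435760). It had 0, 16 and 0 counts in the unstripped libraries, 0 in all 3 stripped control libraries, and 30, 35 and 48 with NGO. The NGO-treated libraries lay close together, at 9.06, 8.10 and 7.99 CPM, and above every other library. That is at least 22.7-fold higher than the limit of 0.369 CPM in stripped control skin, and the test did not pass (edgeR adjusted p = 0.137, unadjusted 0.0175). In a fit without the NGO-treated libraries Cidec did not pass the low-count filter. Its place among the tested genes thus rested on the group where it was high, and the bound and p-values only describe these counts. The bound was 14.1-fold without stripped control replicate 2 and 13.997-fold without replicate 3, where fewer counts set the limit. Zeros of this kind were common in stripped control skin. Of 2535 tested genes with a mean of 5 to 12 CPM in NGO-treated skin, 171 (6.75%) were at 0 in all 3 stripped control libraries. Genes with at least 30 counts in 1 library of a group and 0 in the other 2, as Plin1 had, made up 6.55% of the genes reaching 30 counts in a stripped control library. In NGO-treated skin they made up 4.08%, and in unstripped skin 0.108%.

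NGO-treated skin was also set against unstripped skin, a comparison that shares libraries with both of the others. Of the 8 tested members 4 were called higher and 0 lower, and they were the same 4 that rose after stripping. Of all genes tested 2.51% were called, 2.06% higher and 0.451% lower. By range alone, 6 of 10 members were higher in every NGO-treated than in every unstripped library, Plin1 and Cidec joining the 4. Of all genes tested 11.9% were higher and 26.2% did not overlap in either direction. The shares by range cover tested genes only, and Plin1 and Lep were not tested. No member was lower by range, where 14.4% of genes were. Between the stripped groups Cidec was higher and Lpl lower by range, where 16.3% of all genes tested were higher and 8.92% lower, 25.2% in all. After stripping with control cream 4 members were higher and 0 lower by range, where 13.8% of genes were higher and 24.7% lower, 38.5% in all.

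Marker lists of other cells moved too, some up with the members after stripping and the epidermal and sebaceous gland lists down. Their part in these results was not tested. The counts below stand beside 5.97% of all genes tested called higher and 7.64% lower after stripping. With NGO against control cream these shares were 3.87% higher and 1.18% lower. The summed level of the 10 members was 71.9 to 97.6 CPM in unstripped skin, 948 to 1311 CPM in stripped control skin and 597 to 864 CPM in NGO-treated skin. Skeletal muscle markers, of which 16 of 16 rose after stripping, ran from 142 to 1324, from 45757 to 126130 and from 20591 to 46527 CPM. Endothelial markers, 5 of 9 tested rising, ran from 41.0 to 61.9, from 366 to 730 and from 236 to 355 CPM. Red blood cell genes, 4 of 5 rising, ran from 41.6 to 154, from 1022 to 1490 and from 304 to 486 CPM. Of these, Hbb-bs and Hbb-b1 had the same counts in each NGO-treated library (117, 362 and 167) and near-equal counts elsewhere. The list may thus count the same reads under both symbols. Fibroblast markers, 4 of 8 rising, ran from 362 to 406, from 940 to 1378 and from 651 to 1463 CPM. Neutrophil markers, 4 of 7 rising, ran from 32.3 to 44.8, from 3382 to 9791 and from 469 to 1524 CPM. Macrophage markers, 1 of 9 rising, ran from 62.8 to 129, from 178 to 348 and from 132 to 197 CPM. With NGO against control cream 4 of 7 neutrophil and 1 of 5 red blood cell markers fell. No muscle, endothelial, fibroblast or macrophage marker was called in that comparison. Basal epidermal markers fell (8 of 10), from 23363 to 32147 CPM in unstripped skin to 1895 to 3066 CPM in stripped control skin, and stood at 12324 to 19022 CPM in NGO-treated skin, where 7 of 10 rose against stripped control skin. All 7 suprabasal markers fell after stripping, from 6500 to 13112 CPM to between 243 and 400 CPM. They stood at 893 to 1291 CPM with NGO, where 3 of 7 rose against stripped control skin. Sebaceous gland markers were at 849 to 1191, 446 to 637 and 699 to 881 CPM, with 1 of 11 higher and 2 lower after stripping and 3 higher with NGO. Of the defining markers, Plin1 was at 0 in unstripped skin and Cidec and Lep in stripped control skin. Every muscle, basal epidermal, macrophage, fibroblast and red blood cell marker listed had counts in each group. The other lists held such zeros too. In unstripped skin 1 of 10 endothelial and 2 of 8 neutrophil markers were at 0. In stripped control skin 1 of 7 suprabasal, 2 of 12 sebaceous gland and 1 of 8 neutrophil markers were. In NGO-treated skin 1 sebaceous gland and 1 neutrophil marker were.

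**Figure D4:**
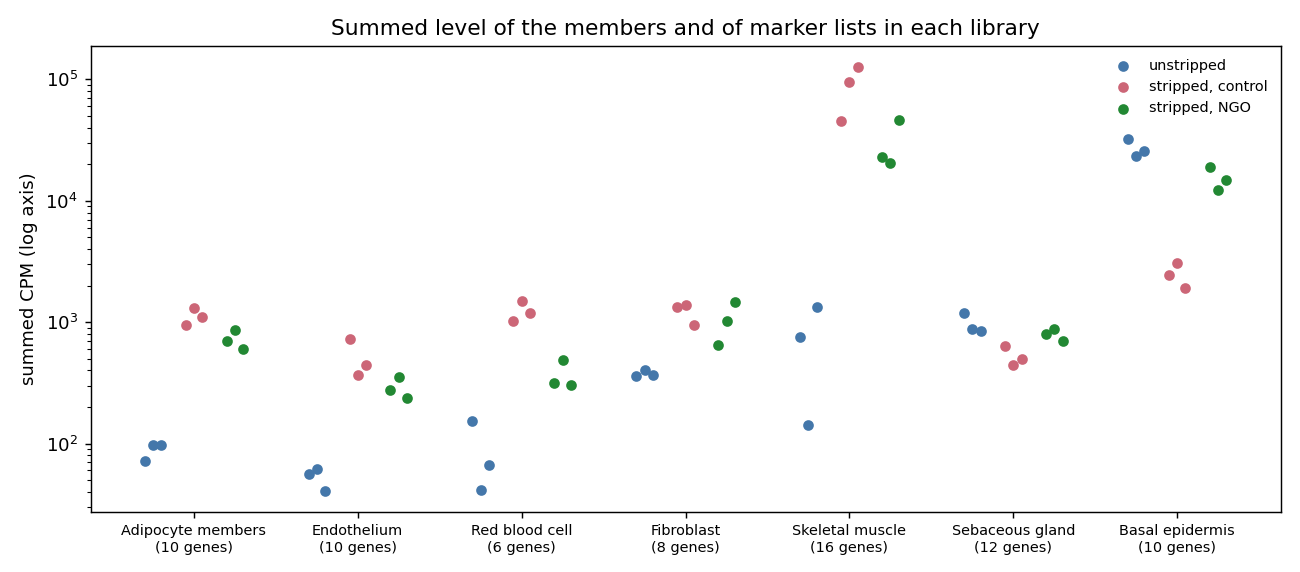
Summed level (CPM, log axis) of the 10 members and of 6 marker lists in each of the 9 libraries. The members, endothelium, red blood cell, fibroblast and muscle lists were higher in every stripped than in every unstripped library. The basal epidermis and sebaceous gland lists were lowest in stripped control skin.

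Other genes of the fat cell were read from a list of 70 arranged by role, of which 60 were tested. After stripping 11 rose and 4 fell (median log2 fold change 0.53). With NGO against control cream 3 rose and 1 fell (median -0.08). NGO-treated skin had 6 higher and 0 lower than unstripped skin (median 0.64). Of all genes tested, 5.97% were higher and 7.64% lower after stripping, and 3.87% and 1.18% with NGO against control cream. Between NGO-treated and unstripped skin 2.06% were higher and 0.451% lower. The falls after stripping and the calls with NGO against control cream were thus near the share of all genes. The counts by role below stand beside the same shares. Among 7 tested genes for secreted factors 2 rose after stripping. Angptl4, a secreted inhibitor of lipoprotein lipase, rose by 2.84 ± 0.77 (edgeR adjusted p = 0.0259), and this was lost without any 1 of the unstripped replicates, without stripped control replicate 1 and with the replicate number as a block (up to 0.112, and 0.0504 with the block). Agt, the angiotensinogen gene, went from 3 counts to 281 in the group (ratio 112, 95% counting interval 37.9 to 545, edgeR adjusted p = 0.0102). All 3 of the unstripped counts lay in replicate 3, without which the ratio was at least 72.6 (3 counts over the group). It was also 72.6 without unstripped replicate 2 and 69.2 without stripped control replicate 2. None of 5 tested receptor genes, among them the adiponectin receptor genes Adipor1 and Adipor2, passed in any comparison.

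Of 9 lipid droplet genes G0s2, an inhibitor of triglyceride breakdown, rose after stripping from 1 count to 385 in the group (ratio 459, 95% counting interval 82.0 to 18192, edgeR adjusted p = 0.000265). Without unstripped replicate 2, which held that count, the ratio was at least 99.5 (3 counts over the group), and without replicate 3 it was 298.6. It was at 57.4, 43.2 and 45.3 CPM in stripped control skin and 13.0, 13.0 and 17.3 CPM in NGO-treated skin. Those ranges did not overlap, but the difference did not pass (-1.75, edgeR adjusted p = 0.206). Plin3, a droplet coat gene of most cells, fell by 1.58 after stripping (SE 0.49, edgeR adjusted p = 0.0475) and lost its call in 14 of the 18 alternatives tried, 8 of them fits without 1 library (all but stripped control replicate 3; up to 0.21). None of 6 lipolysis genes, including the lipase genes Pnpla2 and Lipe, passed in any comparison. Lipe was at 74.3 ± 13.8 CPM in stripped control skin and at 26.9 ± 4.998 and 29.9 ± 12.7 CPM in unstripped and NGO-treated skin (SD, n = 3; edgeR adjusted p = 0.0724 after stripping and 0.151 with NGO).

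Of 8 tested genes for fatty acid uptake and triglyceride synthesis 3 rose after stripping and none fell. Slc2a4, the insulin-responsive glucose transporter gene of fat and muscle, rose by 4.23 ± 0.65 (edgeR adjusted p = 0.000644) and was also higher in NGO-treated than in unstripped skin (3.74 ± 0.63, 0.00508). Gpd1, which makes glycerol phosphate and is abundant in muscle as in fat, rose by 3.27 ± 0.56 (edgeR adjusted p = 0.00156), and by 4.09 without unstripped replicate 1 and 3.95 with limma-voom. Lpin1, a phosphatidate phosphatase gene, rose by 1.86 ± 0.35 (edgeR adjusted p = 0.00277). The fatty acid transporter gene Cd36 was at 15.6 ± 9.90, 13.8 ± 12.4 and 31.0 ± 29.5 CPM and passed in no comparison.

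Of 10 tested transcription factor genes Cebpd, an early factor of fat cell formation that inflammation also induces, rose by 2.98 ± 0.44 after stripping (edgeR adjusted p = 0.000517). Rxra, the partner of PPARγ, went the other way. It was at 268, 179 and 182 CPM in unstripped skin, 46.0, 37.0 and 39.8 CPM in stripped control skin and 133, 99.0 and 122 CPM in NGO-treated skin, with no overlap. It fell by 2.36 after stripping (SE 0.34, edgeR adjusted p = 0.000425) and rose by 1.53 ± 0.33 with NGO (edgeR adjusted p = 0.0216). The rise was lost without NGO replicate 1 (0.0784) or 3 (0.062), with limma-voom (0.0853) and in a fit of the stripped groups alone (0.105). The summed basal epidermal markers moved in the same directions as Rxra, with means of 27136, 2466 and 15372 CPM. Which cells the Rxra counts came from was not tested. Cebpa, a factor of mature fat cells and of the epidermis, fell by 3.32 (SE 0.86, edgeR adjusted p = 0.0204), lost without unstripped replicate 1 (0.0677) or 3 (0.0505). Its change was -5.07 without stripped control replicate 1, -4.27 with limma-voom and -3.93 with the replicate number as a block. Cebpd was higher in NGO-treated than in unstripped skin by 1.73 ± 0.43 (edgeR adjusted p = 0.0485), lost without any 1 library other than stripped control replicate 1 (up to 0.31) and with the replicate number as a block (0.0576).

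Of 5 thermogenic genes Cox8b and Prdm16 rose after stripping. Cox8b, a cytochrome oxidase subunit of brown fat, heart and skeletal muscle, rose by 7.54 ± 0.87 (edgeR adjusted p = 0.000102) and was higher by 5.68 ± 0.82 in NGO-treated than in unstripped skin (0.00216). Without unstripped replicate 2 these were 6.93 and 5.07, the second was 6.27 without unstripped replicate 1, and with limma-voom they were 8.91 and 6.83. Prdm16, a regulator of brown fat, rose by 2.0 ± 0.52 (edgeR adjusted p = 0.0208), lost without unstripped replicate 2 (0.0837) or 3 (0.0981). Ucp1, the uncoupling protein that defines brown fat, was at 14.5 ± 5.14, 20.6 ± 14.2 and 14.2 ± 12.3 CPM and passed in no comparison (edgeR adjusted p = 0.848, 0.854 and 0.999).

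Of 3 tested partners of lipoprotein lipase 1 fell after stripping and 1 rose with NGO. Gpihbp1, which anchors the enzyme to capillary endothelium, was at 0.786 ± 0.742, 10.3 ± 9.01 and 13.9 ± 13.98 CPM, and no comparison passed (edgeR adjusted p = 0.236, 0.923 and 0.444). Apoe, a lipoprotein gene of many cells, fell from 1843 ± 509 to 138 ± 90.6 CPM after stripping (-3.74 ± 0.50, edgeR adjusted p = 0.000267). With NGO it was at 907 ± 404 CPM, higher than with control cream by 2.72 ± 0.48 (edgeR adjusted p = 0.00752). Without stripped control replicate 2 the changes were -4.41 and 3.42.

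Of 7 tested paralogs of the members 2 rose after stripping, and with NGO 1 rose and 1 fell. Fabp5, the fatty acid binding protein of the epidermis, was at 410 ± 141, 260 ± 106 and 703 ± 197 CPM. It rose by 1.43 ± 0.37 with NGO (edgeR adjusted p = 0.0429), lost without any 1 library other than unstripped replicate 1 and stripped control replicate 1 (up to 0.14), with RLE scaling (0.0641) and in a fit of the stripped groups alone (0.11). Fabp5 over Fabp4 counts ran from 16.6 to 42.7 in unstripped skin, from 0.879 to 1.91 in stripped control skin and from 3.14 to 3.99 in NGO-treated skin, with no overlap. Fabp3, the form of heart and skeletal muscle, rose by 3.19 ± 0.43 after stripping (edgeR adjusted p = 0.00027) and was higher by 1.92 ± 0.41 in NGO-treated than in unstripped skin (0.0212). That last call was lost without unstripped replicate 2 (0.103) or 3 (0.144), without NGO replicate 3 (0.122) and with the replicate number as a block (0.0503). Retnlg, a resistin relative made by neutrophils in mice, had 3 counts in the unstripped libraries, 2126 with control cream after stripping and 381 with NGO. It fell by 3.23 with NGO (SE 0.81, edgeR adjusted p = 0.0389), lost without NGO replicate 1 or 3, without unstripped replicate 1 and without replicate 2 of stripped control skin (up to 0.121), without a low-count filter (0.144) and in a fit of the stripped groups alone (0.0937). Without NGO replicate 2 the difference was -4.67. The ratio of NGO-treated to unstripped skin was 90.2 (95% counting interval 30.6 to 439, edgeR adjusted p = 0.00734), lost without a low-count filter (0.0819). It was 36.0 without NGO replicate 2, 58.6 without unstripped replicate 2, and at least 58.6 without unstripped replicate 3, which held all 3 counts.

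**Figure D5:**
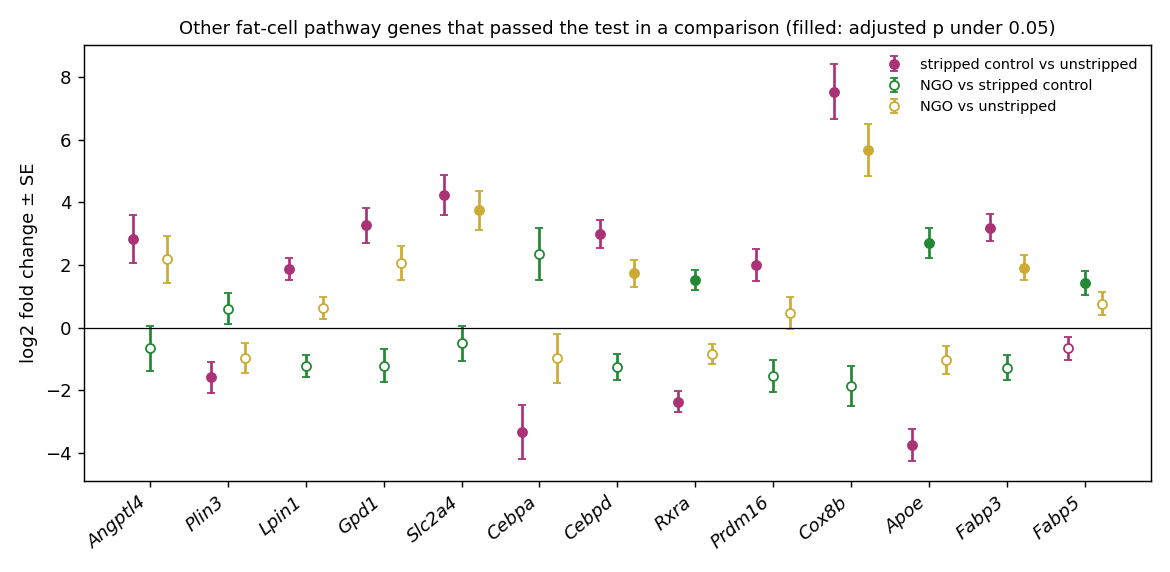
Log2 fold changes with SE of the 13 other fat-cell pathway genes that passed the test in at least 1 comparison and had more than 3 counts in every group. Filled points passed. Slc2a4, Gpd1, Cox8b and Fabp3 lie high against unstripped skin, and Rxra and Apoe lie on opposite sides of 0 after stripping and with NGO.

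Genes with the most similar pattern over the 9 libraries were found by the root mean square difference of log2 CPM, each gene centred on its own mean. Among the nearest of 7932 genes to Fabp4 were Aqp1, Pf4, Procr, Fsd2 and Col4a2, at 0.41 to 0.55 log2 units, where the median gene was at 1.98. Aqp1, a water channel of capillaries and red blood cells, was at 13.3, 146 and 111 CPM in unstripped, stripped control and NGO-treated skin (means, n = 3), beside 16.3, 195 and 207 CPM for Fabp4. Procr encodes the endothelial protein C receptor and Col4a2 a chain of basement membrane collagen. Roles are given here for some of these genes only. Pf4 (0.45 log2 units) and Fsd2 (0.54) lay as near, and no cell type was tested for the list. Among the members, Plin4 was nearest to Fabp4, at 0.67, followed by Lpl at 0.97, Cfd at 1.16 and Adipoq at 1.18. Retn, Cidec and Pparg, which had few counts and libraries at 0, were at 1.99, 2.23 and 2.61. For Adipoq the 6 nearest were Kti12, Vcan, Tmem198b, Myadm, Abcg2 and Gclm, at 0.65 to 0.87, where the median was 1.66 and the nearest member, Fabp4, was at 1.18. These distances describe 9 libraries that share depth and composition differences between groups.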

How the data were processed

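Back skin was profiled by 3′-tag RNA sequencing (Lexogen QuantSeq from 500 ng of total RNA, per the labels' protocols), 3 libraries in each of 3 groups. The authors deposited whole-number counts per gene symbol, 1 table a library. Bowtie2, bedtools and mm10 are named in the submitters' processing notes. Counting rules are not given in the sources used here, and near-identical genes carry that doubt. Each table held 23282 entries, 44 of them repeats of a symbol, which were kept apart. No table repeated another.

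In R 4.3.3, edgeR 4.0.16 was run on the 9 libraries together, with the 3 groups as levels (robust quasi-likelihood test, TMM factors, filterByExpr), with Benjamini-Hochberg adjustment over 13740 genes. The groups shared an estimate of the spread for each gene, although the spread differed between groups. The common coefficient of variation, fitted by edgeR in each group alone, was 0.461, 1.09 and 0.83 in unstripped, stripped control and NGO-treated skin. SE and 95% intervals were derived from the F statistic. CPM used the TMM-scaled total of tested genes, and a mean ± SD covers 3 libraries. The code was tested on simulated data. No exact permutation of 3 against 3 libraries can give a p below 0.1. Alternatives were RLE and upper-quartile scaling, no filter or a stricter one (20 counts in 3 libraries), DESeq2 1.42.0, limma-voom (limma 3.58.1) with sample weights, a replicate block, fits restricted to the compared groups, library sizes without muscle, blood and Rn45s counts, and leaving out each library. Genes named were the 10 members, pathway genes called in a comparison, and the 6 genes nearest to Adipoq and to Fabp4 (average log2 CPM of at least 4, prior count 2), of which 1 is not reported here. Others were chosen after their values were seen. The members and lists were chosen with earlier results of these data known. Promoters come from RefSeq (GRCm38.p6).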

Additional observations from a re-analysis of the deposited data

How the results depend on the processing

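Cfd, Fabp4 and Plin4 kept their direction and their call against unstripped skin in both stripped groups, under all 18 alternatives, as did Lpl after stripping. Of 430 member results under alternatives 404 kept direction and side of the threshold, 9 lost a call (Lpl, given above) and 17 changed sign, all 17 in values that did not pass. The number of members called was 4 in each fit after stripping, 0 to 1 without 1 library and 0 in a fit of the compared groups for NGO against control cream, and 3 to 4 without 1 library for NGO-treated against unstripped skin. Genes called numbered 1870, 694 and 345 in the 3 comparisons in that order. They were 2976, 1721 and 756 with DESeq2. Limma-voom gave 420 for the NGO comparison and 1284 against unstripped skin, and a fit of the compared groups alone gave 118 and 602. Leaving out 1 library gave 1159 to 2124, 206 to 929 and 214 to 495. The count moved by over 1.5 times after stripping without unstripped replicate 1, 2 or 3 (1188, 1168 and 1159), in the NGO comparison without unstripped replicate 2 or 3 (397 and 405) or NGO replicate 1, 2 or 3 (206, 318 and 288), and against unstripped skin without unstripped replicate 2 (214) or NGO replicate 3 (229). Higher and lower calls in the NGO comparison numbered 532 and 162, 428 and 215 with RLE scaling and 189 and 231 with limma-voom. After stripping they numbered 820 and 1050, 948 and 931 with RLE scaling and 1392 and 1154 with limma-voom. With RLE scaling the median gene after stripping moved from -0.20 to -0.07. The replicate block gave 1650, 559 and 313 and changed no member call. Same-numbered libraries had correlations of -0.06 to 0.09 in their deviations from the group means, 0 of 9 pairs over 0.1. The highest was 0.0858, for replicate 3 of the stripped groups, beside at most 0.0666 for libraries of different number. Values this weak, with so few libraries a group, cannot show whether the numbers pair the samples.

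Sign changes in values that did not pass were, for Fabp4 with NGO against control cream, -0.046 with RLE scaling, -0.0016 with upper-quartile scaling, -0.046 with DESeq2 and -0.26 to 0.26 without 1 library. In the same comparison Adipoq ran from -0.16 to 1.0 and Retn from -1.30 to 0.10 without 1 library, Retn was 0.54 with limma-voom and 0.48 with the replicate block, and Pparg was -0.079 with limma-voom, -1.75 with the replicate block and -1.25 to 1.39 without 1 library. Pparg after stripping was 1.32 with the replicate block and -1.62 to 0.10 without 1 library, and against unstripped skin -1.77 to 0.30 with NGO. The cause was not tested. Cidec after stripping gave no value without unstripped replicate 2, since both groups were then at 0, and none in a fit of those groups alone, where it did not pass the low-count filter. A count of 0 over a group allows a level of up to 0.310, 0.369 and 0.220 CPM in unstripped, stripped control and NGO-treated skin.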

Other observations

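Several other genes of the fat-cell lists shared the pattern of Cidec, with 0 counts in all 3 stripped control libraries and counts in the other groups. They were picked out after their values were seen. Nrg4, a factor secreted by brown fat, was at 3.83 ± 2.52 CPM in unstripped skin and at 4.23, 9.72 and 6.32 CPM in NGO-treated skin (SD, n = 3; edgeR adjusted p = 0.0707 after stripping and 0.0827 with NGO). Adrb3, the adrenergic receptor of fat cells, was at 4.06 ± 1.17 CPM in unstripped and 1.01 ± 1.74 CPM in NGO-treated skin (edgeR adjusted p = 0.144 and 0.333). Retnla, a resistin relative of macrophages and fat, was at 1.87 ± 1.62 and 3.70 ± 3.20 CPM (edgeR adjusted p = 0.209 and 0.206). None passed the test. Of 2388 tested genes at 5 to 12 CPM in unstripped skin, 175 (7.33%) were at 0 in all stripped control libraries, against 45 (1.88%) in all NGO-treated libraries. Nrg4, Adrb3 and Retnla lay below that band in unstripped skin, so these shares are for genes at higher levels than theirs.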
